A study of Mus musculus with 6 samples.

Results

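Small nucleolar RNA (snoRNA) genes were described in EpH4, a line of mouse mammary epithelial cells, after treatment with TGF-β3 or vehicle. The set was chosen by symbol: every gene whose name in the platform's probe table starts with Snora or Snord followed by a digit, which gave 53 of 20848 measured genes. Of these, 25 were Snora genes, which encode H/ACA box RNAs, and 28 were Snord genes, which encode C/D box RNAs. No measured value chose a gene, but the group and its comparisons by sample number, treatment and class were proposed with earlier results of these arrays known. The differences between sample numbers are therefore given as a description. Of the 53 symbols, 52 were found in the mouse reference gene table, the exception being Snord116.

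Box C/D RNAs guide the enzyme fibrillarin to the bases where it methylates the ribose of ribosomal and spliceosomal RNA, and box H/ACA RNAs guide dyskerin, which turns uridine into pseudouridine. A few members of both classes take part in cutting the ribosomal RNA precursor. In mammals most snoRNAs are trimmed out of the introns of host genes, many of which encode ribosomal proteins or are spliced non-coding transcripts whose only stable products are the snoRNAs. A probe on a snoRNA can bind the mature RNA and the unspliced host intron, and the arrays do not tell these apart.

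The cells stood as a confluent monolayer for 7 days before treatment and then received 1 ng/ml TGF-β3, or vehicle, for 24 hours without serum. Each group had 3 samples numbered 1 to 3, from 3 experiments, each sample being the pooled RNA of 3 wells on 1 array. All samples are 1 cell line, so the arrays show its RNA and not that of mammary tissue. Values are log2 signals, so a difference of 1 is a 2-fold change. In bulk RNA, fewer cells of a kind and less RNA per cell cannot be told apart.

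The 9 epithelial markers, among them Krt8, Krt18, Cdh1 and Epcam, averaged between 9.58 and 9.74 on the 6 arrays. None of the 9 lay under 4.89, the limit of the 20% of genes of lowest mean signal, although Krt19 was close to it at 4.92. Under the limit were 2 of 3 lymphocyte, 2 of 4 adipocyte, 2 of 6 fibroblast, 1 of 5 macrophage, 1 of 4 endothelial and 0 of 4 myoepithelial markers, so this limit does not set the epithelial list apart from most others. The fibroblast marker Col1a1 had a mean of 9.14. Col1a1 and the epithelial factor Elf3 differed between sample numbers by 0.73 and 0.74, and their part in the number differences of snoRNA genes was not tested. Of the 20848 genes, 0 passed the test of treatment. Vehicle 3 stood apart in its spread, with an SD over genes of 1.58 against 1.68 to 1.74 on the other arrays, and the 20% of genes of lowest signal lay on average 0.13 above their own means.

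TGF-β3 against vehicle gave no snoRNA gene past the threshold of an adjusted p of 0.05 in limma, adjusted over all genes. That was 0 of 53 members against 0% of all genes, and the lowest adjusted p of a member in limma was 0.684. At an unadjusted limma p under 0.05, 2 members (Snord85 and Snord58b) and 5.16% of all genes were called, both members being higher with TGF-β3. When the sample number was held as a replicate block, 0.00959% of all genes (2 genes) and 0 of 53 snoRNA genes passed. With that block, 6 of 53 members and 12.2% of all genes had an unadjusted limma p under 0.05. Snord85 and Snord58b were the 2 higher with TGF-β3, against 6.9% of all genes. Snord116, Snora61, Snord15b and Snord8 were the 4 lower, against 5.34% of all genes.

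The members' differences were small and ran both ways. TGF-β3 minus vehicle was above 0 in 23 snoRNA genes and below 0 in 30, with a median of -0.03 against 0.01 over all genes. The H/ACA median was 0.01, with 13 genes above and 12 below 0, and the C/D median was -0.04, with 10 above and 18 below. These medians depended on single arrays: without vehicle 1 the median was 0.05 over all snoRNA genes and 0.04 over C/D genes, and the H/ACA median was -0.08 without vehicle 3, -0.02 without TGF-β3 1 and -0.02 without TGF-β3 2. Quantile normalization of the arrays also turned the H/ACA median, to -0.04, and leaving out the 20% of genes of lowest signal gave it as -0.003. The C/D median was -0.10 under each of these settings, and -0.09 both without vehicle 2 and without vehicle 3. It was -0.06 without TGF-β3 3. The median over all snoRNA genes was -0.07 with quantile normalization, -0.08 without vehicle 3 and -0.05 without vehicle 2.

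**Figure D1:**
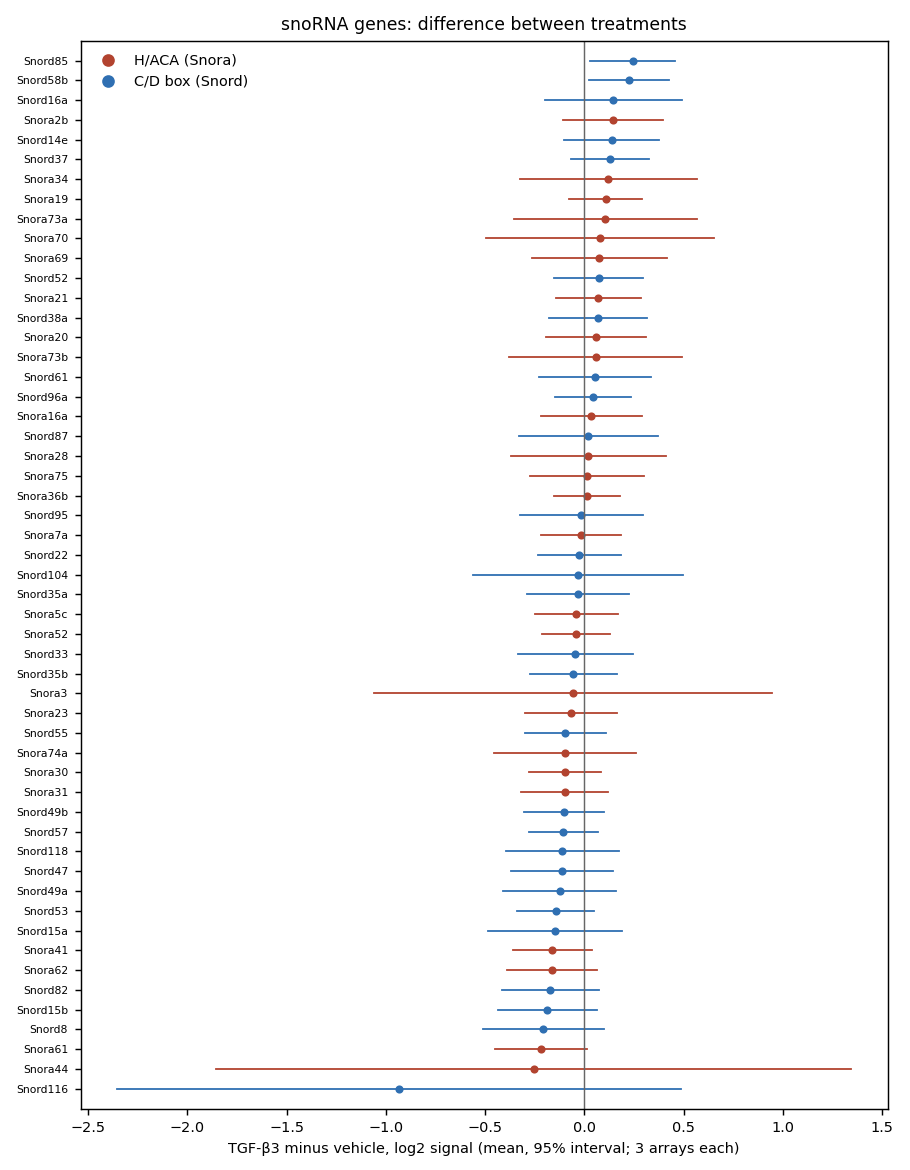
TGF-β3 minus vehicle (x axis, log2 signal) for each of the 53 snoRNA genes, ordered by difference, with H/ACA genes in red and C/D box genes in blue. Points are differences of means of 3 arrays a group, and bars are 95% intervals from limma without the replicate block. Most points lie close to 0, while Snora3, Snora44 and Snord116 have the widest bars.

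The 95% interval of a member's difference reached a median of 0.25 log2 units to either side. For 3 members, Snora3, Snora44 and Snord116, the interval took in a 2-fold change. The fit without a block counts the difference between sample numbers in that width. With the replicate block the interval of Snora3 ran from -0.26 to 0.14 and that of Snora44 from -0.55 to 0.04, and Snord116 alone reached 2-fold, from -1.47 to -0.40 with a limma adjusted p of 0.404.

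The 3 TGF-β3 arrays all lay above the 3 vehicle arrays in 3 members (Snora19, Snord58b and Snord85), against 6.84% of all genes. They all lay below in 2 members (Snord53 and Snord57), against 6.05% of all genes. Both counts were near their background. Taken by sample number, TGF-β3 was higher than vehicle in 3 of 3 pairs for 5 members, against 24% of all genes, and lower in 3 of 3 pairs for 10 members, against 18% of all genes.

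The C/D box gene Snord85 had the highest difference. Its vehicle signals were 4.54, 4.59 and 4.60, and its TGF-β3 signals were 4.79, 4.68 and 4.99, in the order of the numbers. The groups did not overlap, and the difference was 0.24 (SE 0.10; limma adjusted p = 0.684). Snord58b, which lies in the ribosomal protein gene Rpl17, read 3.89, 3.89 and 3.69 in vehicle and 4.14, 4.0 and 4.01 with TGF-β3, a difference of 0.23 (SE 0.09; limma adjusted p = 0.684). Both were among the 8 members whose mean signal lay under 4.89, the limit of the lowest 20% of all genes. So were Snord37 and Snora19. The next differences above 0 were 0.15 for Snord16a, 0.14 for Snora2b, 0.14 for Snord14e, 0.13 for Snord37, 0.12 for Snora34 and 0.11 for Snora19. In Snord16a, Snora2b, Snord14e, Snord37 and Snora34 the groups overlapped, and none of the 8 passed the test.

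On the other side, Snord116 had the lowest difference. This C/D box RNA comes from a tandem array in an imprinted region, is studied mostly in brain, and is known for its loss in Prader-Willi syndrome in humans. It read 6.61, 8.22 and 9.04 in vehicle 1, 2 and 3, and 5.87, 7.99 and 7.20 with TGF-β3. TGF-β3 was lower in all 3 pairs, yet the groups overlapped, and both arrays of number 1 lay below the other 4. The difference was -0.93 (SE 0.63; limma adjusted p = 0.684), and it ran from -1.61 without vehicle 1 to -0.36 without TGF-β3 1. Of the gene's 24 probe sets, 18 held identical values, so they were not separate measurements. Measured neighbours in the same imprinted region had smaller ranges than the 1.87 of Snord116. Ube3a, a ubiquitin ligase gene, averaged 7.68, 7.52 and 7.37 in numbers 1, 2 and 3, a range of 0.31 that is above the median of 0.17 over all genes, and Ndn, an imprinted single-exon gene, averaged 4.23, 4.24 and 4.22.

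The next lowest differences were -0.26 for Snora44, -0.22 for Snora61, -0.21 for Snord8, -0.19 for Snord15b, -0.17 for Snord82, -0.16 for Snora62 and -0.16 for Snora41. None passed the test. Snora61 read 8.42, 8.20 and 8.34 in vehicle and 8.27, 7.96 and 8.06 with TGF-β3, so it was lower in each pair while the groups overlapped by the first TGF-β3 array. Snord15b, carried in the ribosomal protein gene Rps3, read 8.26, 7.94 and 8.01 in vehicle and 8.04, 7.83 and 7.78 with TGF-β3, again lower in each pair with an overlap. Its partner in the same gene, Snord15a, differed by -0.15, with 7.33, 6.74 and 6.75 in vehicle against 6.85, 6.78 and 6.74. Vehicle 1 was the only vehicle array of Snord15a above all TGF-β3 arrays.

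That vehicle 1 was high was common to both classes. Taking each gene's deviation from its own mean, the median snoRNA gene stood at 0.13 on vehicle 1 and between -0.09 and -0.02 on the other 5 arrays. For H/ACA genes the median on vehicle 1 was 0.10, and for C/D genes 0.13, while over all genes it was 0.002. Among other small RNA classes it was 0.19 over 4 Rnu genes, 0.01 over 3 Scarna genes and -0.004 over 302 microRNA genes, so a high vehicle 1 was not particular to snoRNA genes. The median difference of snoRNA genes, TGF-β3 minus vehicle, was correspondingly -0.11 in pair 1, -0.001 in pair 2 and 0.07 in pair 3. The C/D medians were -0.18, 0.03 and 0.10 in pairs 1, 2 and 3, and the H/ACA medians were -0.05, -0.03 and 0.05. Pairs 1 and 3 thus ran in opposite directions in both classes, while pair 2 was nearly level over all snoRNA genes.

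**Figure D2:**
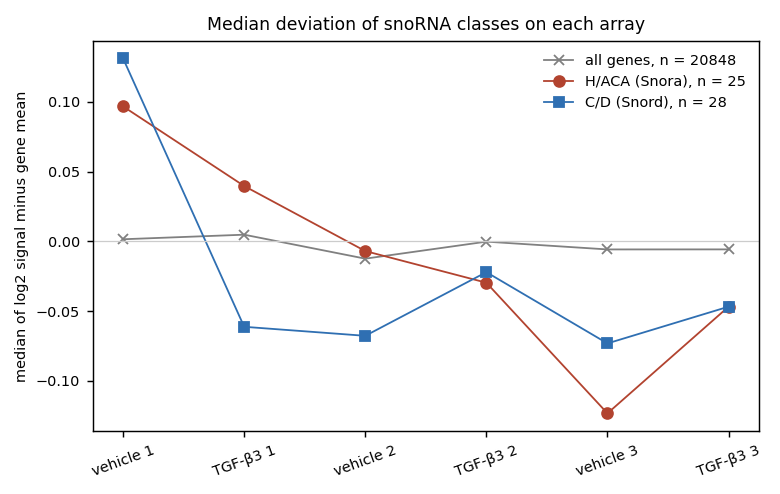
Median over genes of the log2 signal minus each gene's own mean (y axis) on the 6 arrays (x axis, ordered by sample number), for all 20848 genes, 25 H/ACA genes and 28 C/D box genes. The line of all genes stays near 0, while both snoRNA classes are highest on vehicle 1, at 0.10 and 0.13. The 2591 other genes with 1 probe set, not drawn here, stood at -0.03 on vehicle 1 and 0.11 on vehicle 3.

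The rRNA-processing snoRNAs were listed for a part in cleavage of the ribosomal RNA precursor, which does not exclude a part in modification. Of 13 listed genes 7 were measured, of which 0 passed in either direction, with 3 differences above and 4 below 0. Single arrays moved that split, with 6 of 7 above 0 without vehicle 1 and 1 of 7 without TGF-β3 1. Snora62 (E2) differed by -0.16 (SE 0.10), and Snord14e, a U14 gene needed to form 18S RNA, by 0.14 (SE 0.11). Snord118 (U8), needed for the large subunit RNAs and transcribed from its own promoter, read 7.12, 6.83 and 6.59 in vehicle and 6.81, 6.69 and 6.71 with TGF-β3. Snord22 (U22) was nearly level, with 6.67, 6.50 and 6.47 against 6.59, 6.39 and 6.58. In these 2 genes the treatment groups overlapped. The 2 measured snoRNAs of Rpl13a, whose intronic RNAs have been linked to lipid stress in rodent cells, differed by -0.05 (Snord33) and -0.03 (Snord35a), and 0 of 2 passed.

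The proteins of the snoRNA particles did not pass the test either. All 4 H/ACA core protein genes had differences above 0, led by Gar1 at 0.21 (SE 0.10), Nop10 at 0.14 (SE 0.09) and Dkc1, the pseudouridine synthase, at 0.12 (SE 0.13), while Nhp2 stood at 0.02 (SE 0.09). Of these 4 genes 0 passed (lowest limma adjusted p = 0.684). In the C/D core, 0 of 4 passed, with Nop58 at 0.08, Snu13 at 0.05, Nop56 at 0.04 and the methyltransferase Fbl at -0.01. Genes for particle assembly had 12 of 12 measured differences above 0, a median of 0.13 and 0 passed. Without vehicle 3, the array that stood apart, 11 of 12 were above 0 with a median of 0.06, and without TGF-β3 3 it was 9 of 12. The largest were 0.22 each for Pih1d1 and Rpap3, members of the chaperone complex that loads the core proteins, 0.19 for the ATPase Ruvbl1 and 0.18 for the H/ACA assembly factor Naf1. The value of Pih1d1 leaned on vehicle 3, which read 6.95 against 7.40 to 7.55 on the other arrays. Trimming and decay genes had 8 of 9 differences above 0, a median of 0.14 and 0 passed, among them the poly(A) polymerase Tent4a at 0.24, the exosome nuclease Dis3 at 0.21 and the deadenylase Parn at 0.15. Without vehicle 3 the trimming and decay median was 0.05, and Tent4a read 8.36 on vehicle 3 against 8.70 to 8.89 on the other arrays. The H/ACA core median was 0.13 with all arrays, 0.08 without vehicle 3 and 0.08 without TGF-β3 3, and the C/D core median was 0.05 with all arrays and -0.01 without TGF-β3 3. RNA polymerase I and rRNA synthesis genes had 8 of 10 above 0, a median of 0.08 and 0 passed, with the initiation factor Rrn3 at 0.22 and Myc at -0.07. Over all genes the median was 0.01, and 11006 of 20848 differences were above 0.

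Sample numbers were compared next, as a description. The mean of the 2 arrays of each number was taken per gene, and the range is the highest minus the lowest of the 3 means. It exceeded 0.5 in 7 of 53 snoRNA genes, against 2.98% of all genes. It had a median of 0.24 over snoRNA genes, 0.24 over H/ACA and 0.21 over C/D genes, against 0.17 over all genes. Genes with few probe sets are averaged less, and 45 of the 53 members rest on 1 probe set. Among the 2591 other genes with 1 probe set the median range was also 0.17, and 5.75% exceeded 0.5, against 11.1% of the 45 members with 1 probe set. MicroRNA genes (302) had a median range of 0.14, ribosomal protein genes (89) of 0.12 and histone genes (40) of 0.18. Rnu genes (4) had a median range of 0.27 and Scarna genes (3) of 0.21, near the snoRNA genes and unlike the microRNA genes. Histone genes also had a like share over 0.5, at 12.5% against 13.2% of snoRNA genes. In limma's F-test of sample number, 6 members passed against 1.18% of all genes: Snora3, Snora44, Snora70, Snora73a, Snora73b and Snord116. Since the number comparison helped choose the group, nothing is read from that count. It was 0 when the brightest probe set stood for each gene, 2 with the median probe set and 15 without TGF-β3 3, though a member with 1 probe set has the same values under the first 2 settings.

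Number 1 was most often the highest. It had the highest mean in 28 of 53 members (52.8%; 36.8% of all genes), number 2 in 14 (27.7% of all genes) and number 3 in 11 (35.6% of all genes). Number 2 was the lowest in 24 members (31.8% of all genes), number 3 in 20 (32.9%) and number 1 in 9 (35.3%). The lead of number 1 rested on vehicle 1. Among the vehicle arrays alone number 1 was highest in 32 of 53 members (36.0% of all genes), and among the TGF-β3 arrays alone in 20 (36.5% of all genes). The median deviation of snoRNA genes in number 1 was 0.05, and 0.004 without vehicle 1. Both arrays of number 1 lay above the other 4 arrays in 13 members, against 15.1% of all genes, and both arrays of number 2 in 3 members, against 6.53% of all genes.

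The 3 members in which number 2 stood above the rest were all H/ACA genes: Snora44, Snora3 and Snora70. Snora44 read 9.16 and 8.46 on the arrays of number 2 and between 6.53 and 6.64 on the other 4. Its range of 2.27, a 4.82-fold difference, was rank 2 among all 20848 genes. Snora3 read 9.95 and 10.06 in number 2, 9.05 and 8.79 in number 1, and 8.44 and 8.42 in number 3, vehicle first. Its range was 1.57 (2.98-fold, rank 20 of all genes), and its 2 probe sets differed by at most 0.07 on any array. Whether these probe sets share probes is not known, and Snora44 and Snora70 each rest on 1 probe set. Snora70 had 7.18 and 7.26 in number 2, 6.68 and 6.74 in number 1, and 6.28 and 6.37 in number 3, a range of 0.90 (1.87-fold, rank 108). In Snora3 and Snora70 the 3 numbers kept the order 2, 1, 3 on vehicle and on TGF-β3 arrays alike, and no pair of a number was more than 0.26 apart. Their differences between treatments were -0.06 for Snora3 and 0.08 for Snora70, and Snora44 differed by 0.70 between the 2 arrays of number 2.

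A second set was highest in number 1, among them the C/D gene Snord104, described below. Snora73a and Snora73b, both forms of the U17 RNA that acts in the early cleavage of the rRNA precursor, shared this pattern. Snora73a read 8.15 and 8.38 in number 1 against 7.60 to 7.78 on the other arrays. Snora73b read 7.14 and 7.12 in number 1 against 6.44 to 6.72. Both arrays of number 1 lay above the other 4 in each gene, and the ranges were 0.63 and 0.64. Snora74a (U19), another H/ACA RNA of rRNA processing, read 7.45 and 7.33 in number 1 and 6.89 to 7.11 elsewhere, a range of 0.50. Snora28 read 8.22 and 8.10 in number 1 and 7.55 to 7.80 elsewhere, a range of 0.48. These 4 H/ACA genes had treatment differences between -0.10 and 0.11.

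Just inside the limit of 0.5 stood Snora73a at 0.63, and just outside it Snora74a at 0.50 and Snora28 at 0.48. Snord104, the other C/D member over the limit beside Snord116, was highest in number 1, at 9.98 and 10.28. It was lowest in number 2, at 9.42 and 9.32, and read 9.91 and 9.62 in number 3, a range of 0.76. Snora34 had a range of 0.47 that rested on vehicle 3, at 7.07, while its other 5 arrays read 7.60 to 7.92, and its range was 0.19 without that array. At the other end, Snora36b had a range of 0.02, and Snora52, which sits in the ribosomal stalk gene Rplp2, read 11.48 to 11.59 on all 6 arrays.

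**Figure D3:**
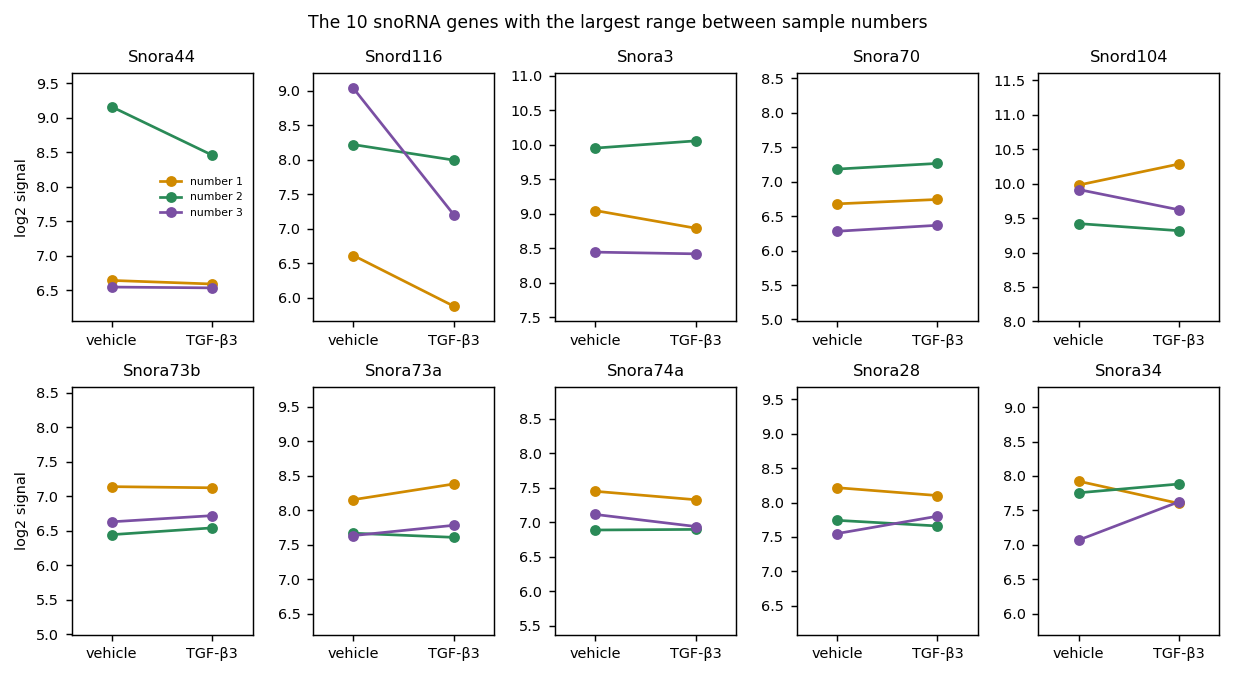
Log2 signal (y axis, each panel spanning the same height) on vehicle and TGF-β3 arrays for the 10 snoRNA genes with the largest range between sample numbers, 1 line for each sample number. Number 2 lies above the others for Snora44, Snora3 and Snora70. Number 1 is highest for Snora73a, Snora73b, Snora74a, Snora28 and Snord104, and lowest for Snord116.

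Hosts were taken as genes whose interval in the reference table held the snoRNA, with no use of strand. Of the 52 placed members, 51 lay inside a gene, 40 of them inside a protein-coding gene and 11 inside a long non-coding RNA gene alone, and Snord118 lay in none. Ribosomal protein genes held 16 members. Of the members, 34 had a measured host, over 30 host genes. The range between sample numbers was larger in the snoRNA than in its host for 26 of the 34 and smaller for 8. A host is an average over many probe sets, and against the median range of the host's single probe sets the snoRNA was larger in 21 of 34. As averages, host ranges had a median of 0.11 and a maximum of 0.31, so 0 exceeded 0.5. Single probe sets of a host ranged up to 1.36 (Ipo7). Treatment differences had the same sign in snoRNA and host for 18 of 34.

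The hosts of Snora3 and Snora70 had small ranges between numbers, of 0.17 and 0.04. Rpl27a, the host of Snora3, averaged 9.84, 9.97 and 10.01 in numbers 1, 2 and 3, and Rpl10, the host of Snora70, averaged 11.67, 11.71 and 11.70. Snhg12, the host of Snora44, was not analysed here. The promoters of these 3 hosts are shown because a host's promoter drives its intronic snoRNA. They run from 250 bases before the annotated start to 50 bases from it, from RefSeq (GRCm38.p6), with the bases from the start on in capitals. All 3 are on the plus strand: Snhg12 at chr4:132308428-132308727, Rpl27a at chr7:109518945-109519244 and Rpl10 at chrX:74270566-74270865.
Snhg12: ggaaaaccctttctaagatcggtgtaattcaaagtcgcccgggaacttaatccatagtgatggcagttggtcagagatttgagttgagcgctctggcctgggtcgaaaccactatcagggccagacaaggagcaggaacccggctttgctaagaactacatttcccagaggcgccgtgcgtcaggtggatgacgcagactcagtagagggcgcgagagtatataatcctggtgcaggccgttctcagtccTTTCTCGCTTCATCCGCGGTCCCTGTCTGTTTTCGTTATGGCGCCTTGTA
Rpl27a: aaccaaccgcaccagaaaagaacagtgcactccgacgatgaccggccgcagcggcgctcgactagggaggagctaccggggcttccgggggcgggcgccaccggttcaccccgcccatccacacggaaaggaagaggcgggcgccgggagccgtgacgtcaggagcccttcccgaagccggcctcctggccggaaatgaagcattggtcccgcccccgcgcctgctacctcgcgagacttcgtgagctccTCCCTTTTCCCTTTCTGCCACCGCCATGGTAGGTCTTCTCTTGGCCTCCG
Rpl10: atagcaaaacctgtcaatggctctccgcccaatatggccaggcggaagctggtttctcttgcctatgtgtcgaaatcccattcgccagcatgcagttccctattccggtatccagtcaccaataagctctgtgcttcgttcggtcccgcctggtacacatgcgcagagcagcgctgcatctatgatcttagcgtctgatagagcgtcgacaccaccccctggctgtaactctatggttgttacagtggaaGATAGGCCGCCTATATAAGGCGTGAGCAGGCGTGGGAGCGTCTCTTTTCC
On both strands, the Myc E-box CACGTG was in 0 of these 3 windows and in 7.15% of 32851 promoters of the same length. The letters TATAAA were in 0 of 3 and in 13.6% of promoters. The related letters TATATAA stand before the start in Snhg12 and after it in Rpl10, and their share over all promoters was not counted. The pyrimidine run CTTTCC was in 1 of 3 (Rpl27a) and in 26.6% of promoters. In Rpl27a the match lay before the start on the strand opposite the printed one, so the printed strand has a purine run there. These are letter matches in these windows only.

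**Figure D4:**
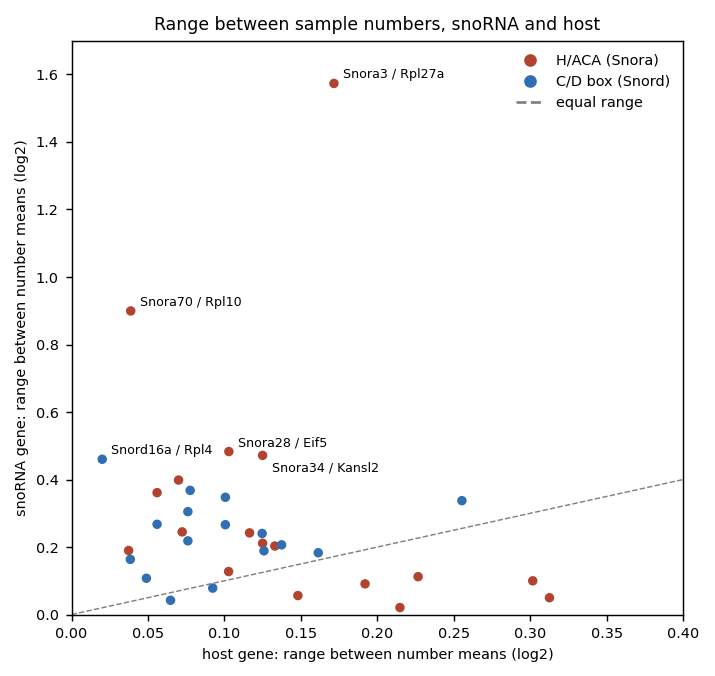
Range between the means of the 3 sample numbers (log2) for 34 snoRNA genes (y axis) against their measured host gene (x axis), with H/ACA genes in red, C/D box genes in blue and the dashed line where both ranges are equal. Snora3 and Snora70 lie far above the line, and the highest host lies at 0.31.

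SnoRNAs of 1 host did not always move together. Snhg12 held Snora16a, Snora44 and Snora61. Snora16a read 7.17 and 7.15 in number 1 and 6.85 to 6.98 elsewhere, and Snora61 read 7.96 to 8.42 over all arrays. Neither showed the elevation of Snora44 in number 2. The Snhg3 pair, Snora73a and Snora73b, was higher in number 1 in both members. Rps3 (Snord15a and Snord15b) and Rpl13a (Snord33 and Snord35a) had both members highest on vehicle 1, at 7.33 and 8.26, and at 7.98 and 9.44. The 2 snoRNAs of the nucleolin gene Ncl differed in order: Snora75 was lowest in number 2, at 6.50 and 6.59, and Snord82 was highest there, at 9.80 and 9.65. In Rack1, Snord95 was highest in number 3, at 8.60 and 8.62, while Snord96a ranged only over 0.05 between numbers.

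**Figure D5:**
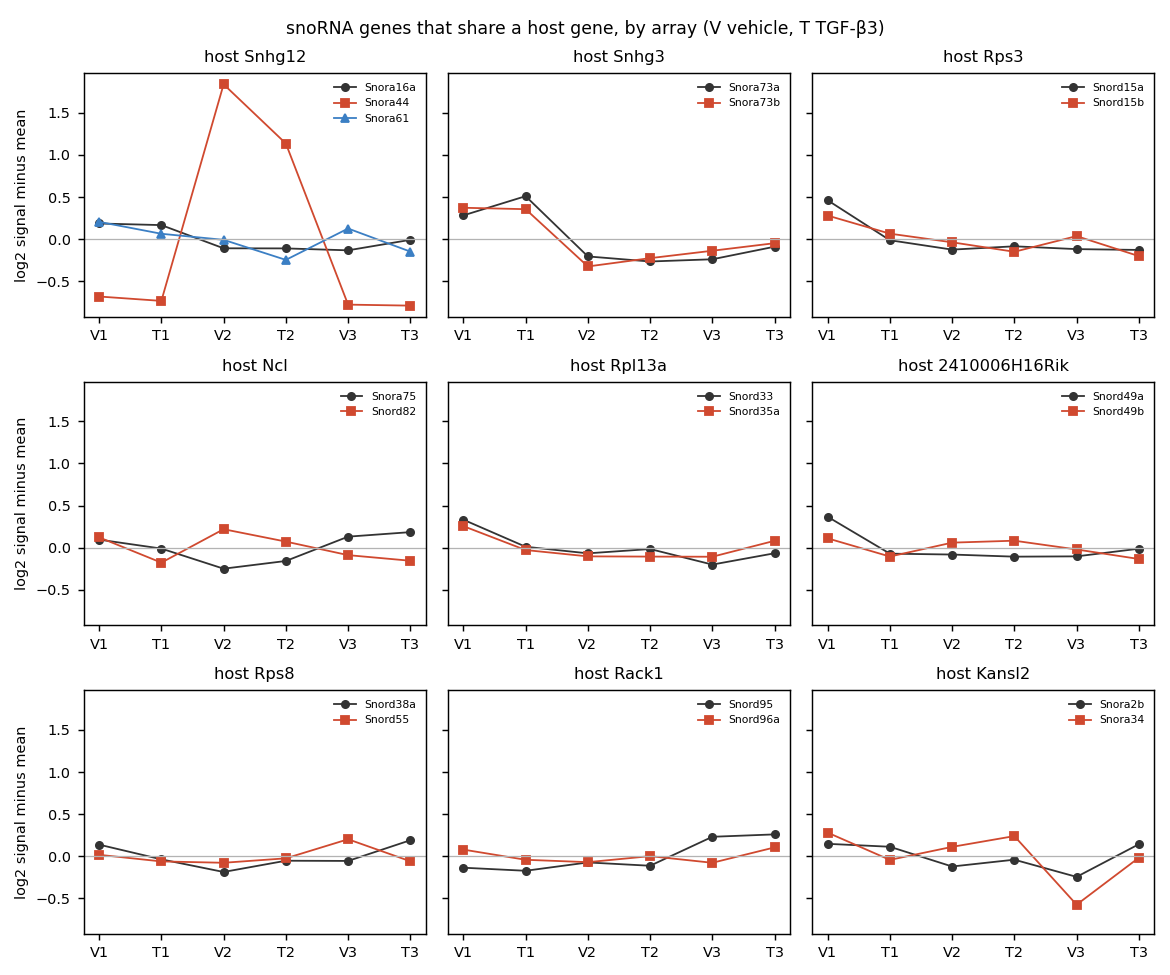
Log2 signal minus the gene's own mean (y axis) on each array (x axis; V vehicle, T TGF-β3, with the sample number) for snoRNA genes that lie in the same host gene, 1 panel for each of 9 hosts. In the Snhg12 panel Snora44 leaves the other two members on the number 2 arrays, while the Snhg3 members run together.

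No listed host gene passed the test of treatment. Of the protein-coding host list 28 of 30 were measured and 0 passed, with 16 differences above and 12 below 0, from Rpl21 at -0.20 to Eif4a2 at 0.16. Of the non-coding host list 6 of 17 were measured and 0 passed, with 3 above and 3 below 0, though 0 of 6 were above 0 without TGF-β3 3. The protein-coding median was 0.04 with all arrays, 0.002 without vehicle 3 and -0.001 without TGF-β3 3. Gas5, whose introns carry several C/D RNAs including Snord47, stood at 0.06 and Snhg1 at 0.04. Snord47 itself differed by -0.11 and Snord22, the C/D RNA of Snhg1, by -0.03.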

How the data were processed

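RNA of 6 samples was measured on Affymetrix Mouse Gene 1.1 ST arrays. Per the submitters' processing notes, the authors used RMA in Affymetrix Power Tools (version and genome build not given in the sources used here) and deposited log2 signals for 241576 probe sets. That these deposited values are log2 follows from their span (2.96 to 13.07, array medians 6.56 to 6.64). Probe sets with 1 symbol in the platform's probe table (213361) were averaged per gene and array, which gave 20848 genes. Those with several symbols (5107) or not listed (23108) were left out, 13 of them naming a snoRNA. No filter on low signal was used, and depth is not defined for arrays: the number of arrays limits the precision.

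Treatments were tested by limma 3.58.1, run in R 4.3.3, with lmFit and eBayes and no block, and sample numbers with an F-test in a fit of treatment and number, each with Benjamini-Hochberg adjustment over all genes and a threshold of 0.05. Both were run on simulated arrays with independent noise. Those arrays lacked the shared deviation of same-numbered samples, so the runs do not show how the tests behave with it. Tables and figures used Python 3.11.15, pandas 2.3.3 and matplotlib 3.10.9. Same-numbered samples, of 3 experiments, deviated together from their group means over all genes (r = 0.62, 0.41 and 0.22). The numbers were therefore taken as pairs in the pair differences and in the fit with the replicate block. The main fit of treatment ignored the pairing. Its SEs, intervals and p-values are the ones printed unless the block is named. For Snord116 the SE was 0.63 without the block and 0.24 with it. Named genes were the 8 largest rises and 8 largest falls, the 10 largest ranges between numbers and up to 4 genes per list. Genes named as examples of a steady level, a shared host or a group of arrays that did not overlap were chosen after their values were seen. The members and lists were chosen with earlier results of these data known. Alternatives were the replicate block, normalization, low signal, probe sets per gene, variance moderation and leaving out each array.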

Additional observations from a re-analysis of the deposited data

How the results depend on the processing

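The count of 0 snoRNA genes past the threshold for treatment was the same under all 14 alternatives run. Over all genes the count was 2 with the replicate block, 1 with the replicate block and quantile normalization (chosen after seeing the data) and 0 to 1 when each array was left out. Apart from that, the replicate block changed no call. For sample numbers, genes past the threshold numbered 0 with the brightest probe set, 9 with the median probe set and 136 to 4213 when each array was left out, against 246. The snoRNA count was 0, 2 and 5 to 15 under the same settings, against 6, and quantile normalization gave 5. Snora3 and Snora44 passed in 11 of 12 alternatives, Snora70 in 10, Snord116 in 9, Snora73b in 8 and Snora73a in 7. The alternatives reused the same arrays and the number comparison helped choose the group, so nothing is read from these tallies.

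Leaving out each array moved the median H/ACA difference from -0.084 to 0.053. It turned the sign of 7 named genes, whose differences ran from -0.14 to 0.29 for Snora34, -0.89 to 0.60 for Snora44, -0.23 to 0.05 for Snora74a, -0.24 to 0.024 for Snord118, -0.020 to 0.25 for Snord16a, -0.16 to 0.11 for Snord33 and -0.094 to 0.088 for Snord35a. The causes were not tested. With 3 arrays a group and unknown detection limits, the precision is low: the median 95% interval reached 0.25 log2 units to either side and 0.19 with the replicate block, and a difference of -0.93 did not pass. The list values without each array, the numbers within 1 treatment and the blocked intervals were chosen after seeing the data.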

Other observations

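Probe sets that carry a snoRNA symbol together with another gene's were kept out of the 53 genes, and 13 such probe sets were present. The probe set of Snord34 and its host Rpl13a read 8.28, 8.06 and 7.81 in vehicle and 7.90, 8.02 and 8.06 with TGF-β3. The probe set of Snord32a and Rpl13a read 10.06, 9.90 and 10.02 in vehicle and 9.91, 9.95 and 9.83 with TGF-β3. Vehicle 1 was the highest array in both, as in the Rpl13a members Snord33 and Snord35a. The probe set of Snora24 and Snhg8 had 6.76, 6.38 and 6.09 in vehicle and 6.63, 6.25 and 6.38 with TGF-β3, highest in number 1. The probe set of Snord14a and Rps13 read 6.28, 6.29 and 6.42 in vehicle and 6.71, 6.31 and 6.69 with TGF-β3.

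Snord116 was 1 of 23 genes with a range between sample numbers over 1.5, and 1 of 11 among these in which number 1 was lowest, a list drawn after the values were seen. The other 10 were Gm3696, Gm3893, Gm5923, Gm6705, Mup10, Obox4-ps18, Oog2, Speer8-ps1, Spin2d and Ugt1a1. Obox4-ps18 averaged 5.86, 7.77 and 7.72 in numbers 1, 2 and 3, and Snord116 averaged 6.24, 8.11 and 8.12.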
